A study of Mus musculus with 12 samples.

Results

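Transcripts of 10 G protein-coupled receptors known from pancreatic islets were followed in MIN6, an insulin-secreting cell line derived from a mouse insulinoma and used to model the β-cell. The receptors were Glp1r, Gipr, Gcgr, Ffar1, Gpr119, Adra2a, Chrm3, Sstr3, Galr1 and Casr. They were taken by gene name, as 10 of the 54022 genes in the deposited tables. The rule takes names and no measured value, although the names were listed with earlier results of these data known. Wild-type MIN6 cells received vehicle or 100 nM trimethylamine N-oxide (TMAO), a metabolite that derives from dietary choline, for 18 h. After a fast, they were then kept in low or high (16.8 mM) glucose, for a time that the sources used here do not give for these samples. The 4 conditions were low glucose with vehicle, low glucose with TMAO, high glucose with vehicle and high glucose with TMAO, with 3 libraries each. All 12 libraries came from 1 cell line, so p-values describe the spread between cultures and not between animals. A tumour line grown alone also lacks the neighbouring cells of an islet.

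These receptors tune insulin secretion. Glp1r, Gipr and Gcgr are class B peptide receptors for GLP-1, GIP and glucagon, and they couple mainly to Gs, which raises cAMP and thereby amplifies glucose-stimulated secretion. Ffar1 senses long-chain fatty acids and Chrm3 senses acetylcholine, both mainly through Gq and phospholipase C, and Gpr119 senses lipid amides through Gs. Adra2a (the adrenaline and noradrenaline receptor α2A), Sstr3 (a somatostatin receptor) and Galr1 (a galanin receptor) couple to Gi/o and restrain secretion. Casr senses extracellular calcium.

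High glucose moved the transcripts of 3 of these receptors, in differing directions. Over both treatments, Galr1 rose 1.2-fold, Adra2a rose 1.08-fold and Sstr3 fell to 0.892 of its low-glucose level. The calls of Galr1 and Sstr3 held in all 20 alternatives, whereas that of Adra2a was lost in 6 of 20 (adjusted p of 0.0586 to 0.0847). The 3 calls are at an adjusted p under 0.05 in the quasi-likelihood test of edgeR, with p-values adjusted after Benjamini and Hochberg over the 16222 tested genes. Of all tested genes, 8.19% were called in the same comparison, 4.13% as higher and 4.06% as lower. None of the 8 tested receptors was called for TMAO at low or high glucose, beside 0.00616% and 0% of all tested genes. Gcgr and Gpr119 were too low to be tested. In RNA from whole cultures, fewer cells with a transcript and less of it per cell cannot be told apart.

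Library totals lay between 16793162 and 22340542 counts, with a TMM normalization factor between 0.994 and 1.009. The β-cell markers were all expressed, and their summed level lay between 39850 and 47340 FPKM (fragments scaled by gene length and library size, as deposited). The sum lay between 39850 and 45550 FPKM in low and between 44250 and 47340 FPKM in high glucose, with 3 of 10 (Mafa, Iapp and Slc2a2) called as higher in high glucose, beside 4.13% of all tested genes. Of the alpha-cell markers, Irx1 was under 0.1 FPKM, whereas Gcg averaged 216.5 FPKM. Alpha-cell markers summed to 199.9 to 216 FPKM in low and 222 to 227.7 FPKM in high glucose. Gcg was called as higher in high glucose by edgeR (adjusted p = 0.0102). Delta-cell markers summed to between 6.42 and 8.55 FPKM and leukocyte markers to between 2.89 and 4.84 FPKM, with Hhex, Ptprc and Adgre1 under 0.1 FPKM. The PP-cell marker Ppy and the acinar, duct and endothelial markers averaged under 0.1 FPKM each, and fibroblast markers summed to at most 0.534 FPKM. The 3 leukocyte markers summed to 2.89 to 4.1 FPKM in low and 4.12 to 4.84 FPKM in high glucose. Cd68 carried this sum and was not called for glucose. The part of these marker levels in the receptor results was not tested.

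Around the RefSeq start sites of Adra2a and Sstr3, which moved in opposite directions with glucose, the same pair of short motifs stood close together, and these stretches are shown for that reason. They are on GRCm38.p6, 5′ to 3′ on the gene's strand, and capitals mark CACGTG (the E-box) and TGACG (the core of the cAMP response element).
Adra2a, chr19:54045179-54045194, plus strand: CACGTGggggcTGACG
Sstr3, chr15:78544350-78544376, minus strand: CACGTGtcctggagatggggggTGACG
Counted from the RefSeq start, the E-box began at -80 and TGACG at -69 in Adra2a, and at -31 and -9 in Sstr3. GENCODE M21 starts both genes further upstream, so that all 300 bases of either RefSeq window (250 before to 50 after the start) are exonic in M21. The positions given therefore hold for the RefSeq starts, and not for those of M21.

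Both motifs were searched on both strands, together with the full cAMP response element TGACGTCA, which contains TGACG, and the Egr motif GCGTGGGCG. Of 32851 promoter windows, 7.15% held CACGTG, 20.81% held TGACG and 2.11% held both. TGACGTCA was in 1.79% and GCGTGGGCG in 0.61% of all windows, and neither was in a receptor window. For the receptors, windows on chromosome 18, where Galr1 lies, were left out, and none was searched for Gipr. Windows of 8 of the 10 receptors were searched, 9 in all since Sstr3 has a second start. Besides Adra2a and Sstr3, the genes with one were Glp1r, Gcgr, Ffar1, Gpr119, Chrm3 and Casr. Of these, Gpr119 held TGACG once, at -168, and the remaining windows held none of the letters searched. The Adra2a window had a GC content of 68.7% with 28 CpG dinucleotides, and the first Sstr3 window 58.7% with 10, beside a median of 52.7% and 7 over all windows. A match of letters is a description and does not show that a factor binds there.

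The levels of the 10 receptors spanned several orders of magnitude. Glp1r was the highest, with a mean over the 12 libraries of 97.7 FPKM, above 97.4% of the tested genes. Ffar1 followed with 76.4 FPKM and Adra2a with 50.9 FPKM, and the libraries of these 3 genes did not overlap. Galr1 (21.9 FPKM), Gipr (21.2 FPKM) and Sstr3 (17.6 FPKM) came next, and each of them overlapped its neighbour in this order. Casr (13.9 FPKM) lay below all libraries of Sstr3, and Chrm3 (2.26 FPKM) lay below all libraries of Casr. The order rests on the gene lengths of the tables. By mean counts, which are not divided by gene length, Ffar1 (6036) and Adra2a (3662) were above Glp1r (2738).

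**Figure D1:**
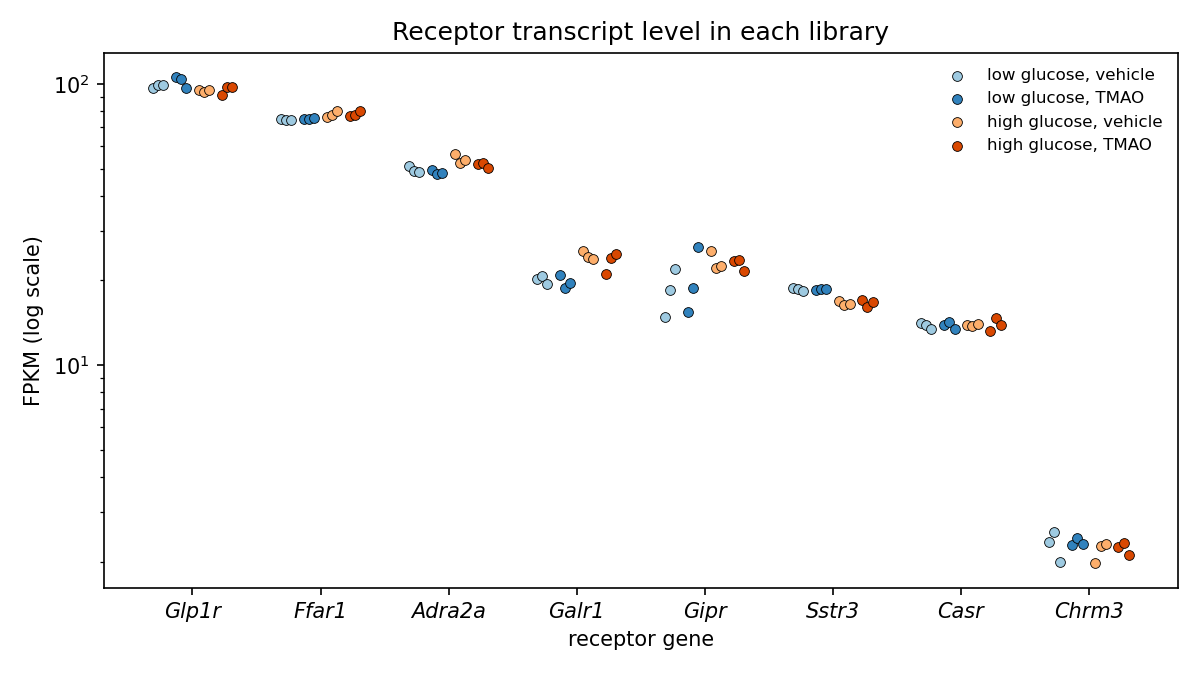
FPKM of the 8 detected receptors (log axis) in each of the 12 libraries, with 1 point per library coloured by condition. Glp1r lies between 91.3 and 106 FPKM and Chrm3 between 1.97 and 2.54 FPKM, and Gipr shows the widest spread, from 14.9 to 26.3 FPKM.

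The glucagon receptor Gcgr and the lipid receptor Gpr119 were near zero. Gcgr had 9 counts in all 12 libraries together, with 0 counts in 7 of them and at most 3 in 1. Gpr119 had 10 counts, with 0 in 6 libraries and at most 5, in a library of low glucose with vehicle. A count of 0 allows up to 3 counts, which is 0.0512 to 0.0682 FPKM for Gcgr and 0.0592 to 0.0787 FPKM for Gpr119, for counting error only. Both failed the filter on low counts and were not tested, so 8 of the 10 receptors entered the comparisons below. A difference in either gene was not detectable at this depth.

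FPKM depends on the gene length used for counting. The tables place Glp1r at chr17:30901867-30936510 on the plus strand with 1480 bases of exon, whereas the M21 annotation extends the gene 4281 bases further at its 3′ end and lists 5811 exonic bases. The Glp1r level is therefore per kilobase of a model with 25.5% of the M21 exonic length. For Adra2a (chr19:54045182-54048982, plus strand) the model had 78.7% of the M21 length, for Sstr3 (chr15:78537015-78544345, minus strand) 90.9% and for Galr1 96.1%. The models of Gipr (chr7:19156061-19166127), Ffar1 (chr7:30857390-30861564), Chrm3 (chr13:9875486-10360847) and Casr (chr16:36493696-36562141), all on the minus strand, had the same span and length in M21. So had those of Gcgr (chr11:120530699-120538986, plus strand) and Gpr119 (chrX:48667979-48674478, minus strand). In M21 no exon of another gene overlaps an exon of any of the 10. All are annotated as protein-coding.

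Glp1r, the target of the GLP-1 receptor agonists, had a level of 96.9, 98.9 and 99.3 FPKM in low glucose with vehicle and 106, 104 and 97.1 FPKM in low glucose with TMAO. In high glucose it was at 95, 93.9 and 95.5 FPKM with vehicle and at 91.3, 97.3 and 97.3 FPKM with TMAO. The low- and high-glucose libraries were apart with vehicle but overlapped with TMAO. High against low glucose over both treatments gave a log2 fold change of -0.08 ± 0.03 (SE, 6 libraries against 6, adjusted p = 0.164), which did not pass the test, with a 95% interval of -0.14 to -0.01.

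Galr1 gave the clearest response to glucose. In low glucose its level was 20.3, 20.8 and 19.4 FPKM with vehicle and 20.9, 18.9 and 19.6 FPKM with TMAO. In high glucose it was 25.5, 24.2 and 23.8 FPKM with vehicle and 21.1, 24 and 24.9 FPKM with TMAO. Each of the 6 high-glucose libraries was above each of the 6 low-glucose libraries, although the lowest of the former, a TMAO library at 21.1 FPKM, was close to the highest of the latter at 20.9 FPKM. The log2 fold change was 0.28 ± 0.06 (SE, n = 3 against 3, adjusted p = 0.00355) with vehicle, 0.24 ± 0.06 (adjusted p = 0.0181) with TMAO and 0.26 ± 0.04 (adjusted p = 6.01e-05) over both. With TMAO the call was lost in 6 of 15 alternatives. They included leaving out replicate 2 or 3 of low glucose with TMAO (adjusted p = 0.0763 and 0.0549) or replicate 2 or 3 of high glucose with TMAO (adjusted p = 0.109 and 0.171). Over both treatments it held in all 20 alternatives, with log2 fold changes of 0.24 to 0.30.

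Sstr3 went the other way with very little spread. It was at 18.8, 18.7 and 18.4 FPKM in low glucose with vehicle and at 18.4, 18.7 and 18.7 FPKM with TMAO. In high glucose it was at 16.9, 16.3 and 16.5 FPKM with vehicle and at 17, 16.1 and 16.7 FPKM with TMAO. All 6 high-glucose libraries were below all 6 low-glucose libraries. Over both treatments the log2 fold change was -0.16 ± 0.04 (SE, 6 libraries against 6, adjusted p = 0.00178), a fall of 10.8%, and it held in all 20 alternatives. Within vehicle the log2 fold change was -0.16 ± 0.05 (adjusted p = 0.0648) and within TMAO -0.16 ± 0.05 (adjusted p = 0.0599), which did not pass the threshold with 3 libraries against 3. With a replicate block the adjusted p was 0.0363 with vehicle and 0.0319 with TMAO, and limma on log2 FPKM with either pseudocount gave 0.0294 to 0.0348, so that these fits called Sstr3 within each treatment.

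Adra2a, through which adrenaline and noradrenaline inhibit β-cells, rose by a small amount. It was at 51.2, 48.9 and 48.6 FPKM in low glucose with vehicle and at 49.5, 47.6 and 48.3 FPKM with TMAO. In high glucose it was at 56.4, 52.1 and 53.8 FPKM with vehicle and at 52.1, 52.4 and 50.2 FPKM with TMAO. The groups were apart within each treatment, but the lowest TMAO library in high glucose was below the highest vehicle library in low glucose. Over both treatments the log2 fold change was 0.11 ± 0.03 (SE, 6 libraries against 6, adjusted p = 0.0252), and 0.13 ± 0.04 with vehicle (adjusted p = 0.134) and 0.09 ± 0.04 with TMAO (adjusted p = 0.345). The call was lost in 6 of 20 alternatives, in which the adjusted p lay between 0.0586 and 0.0847. They were no filter on low counts (0.0623) and leaving out replicate 2 or 3 of low glucose with vehicle, replicate 1 or 3 of high glucose with vehicle, or replicate 2 of high glucose with TMAO.

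**Figure D2:**
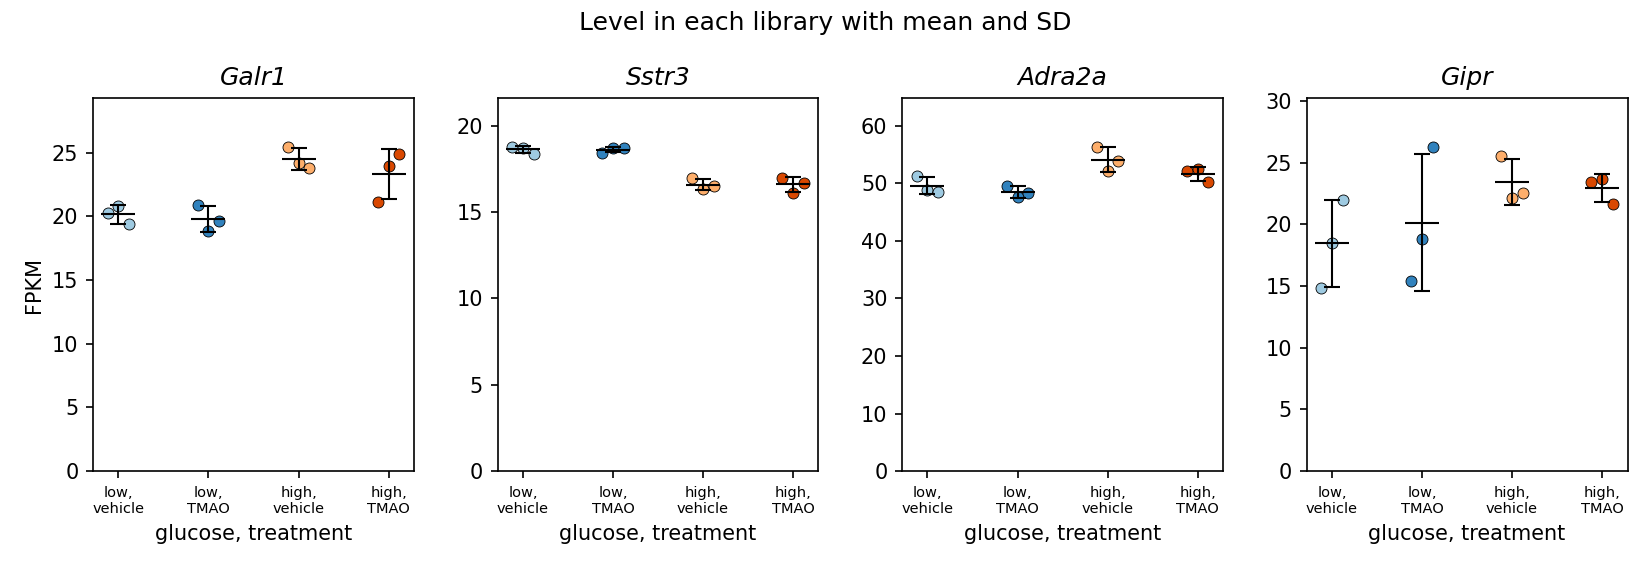
FPKM of Galr1, Sstr3, Adra2a and Gipr in each library (points) with the mean (bar) and SD of the 3 libraries of a condition. Galr1 is higher and Sstr3 lower in all 6 high-glucose libraries, and the low-glucose libraries of Gipr range from 14.9 to 26.3 FPKM.

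The fatty acid receptor Ffar1 was the steadiest of the group, with 74.4 to 75.4 FPKM in the 6 low-glucose and 76.3 to 80.2 FPKM in the 6 high-glucose libraries. The 2 ranges did not overlap, yet the log2 fold change of 0.06 ± 0.03 (SE, adjusted p = 0.216) was not called. Chrm3 lay between 1.99 and 2.54 FPKM in low and between 1.97 and 2.33 FPKM in high glucose (log2 fold change -0.07 ± 0.07, adjusted p = 0.656). Casr lay between 13.4 and 14.2 FPKM in low and between 13.2 and 14.7 FPKM in high glucose (log2 fold change 0.01 ± 0.04, adjusted p = 0.946). For Casr the 95% interval of the fold was 0.954 to 1.06.

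Counting libraries rather than tests, 6 of the 8 tested receptors had non-overlapping normalized counts between low and high glucose with vehicle, beside 18.8% of all tested genes. They were all but Chrm3 and Casr. With TMAO 4 of 8 did (Ffar1, Adra2a, Sstr3 and Galr1), beside 18.4%. Over both treatments 3 of 8 did (Ffar1, Sstr3 and Galr1), beside 4.94%. By the adjusted p, 1 of 8 was called with vehicle and 1 of 8 with TMAO, Galr1 in both, beside 3.3% and 3.64% of all tested genes. The comparisons within vehicle and within TMAO use different libraries, and the mean comparison uses both.

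**Figure D3:**
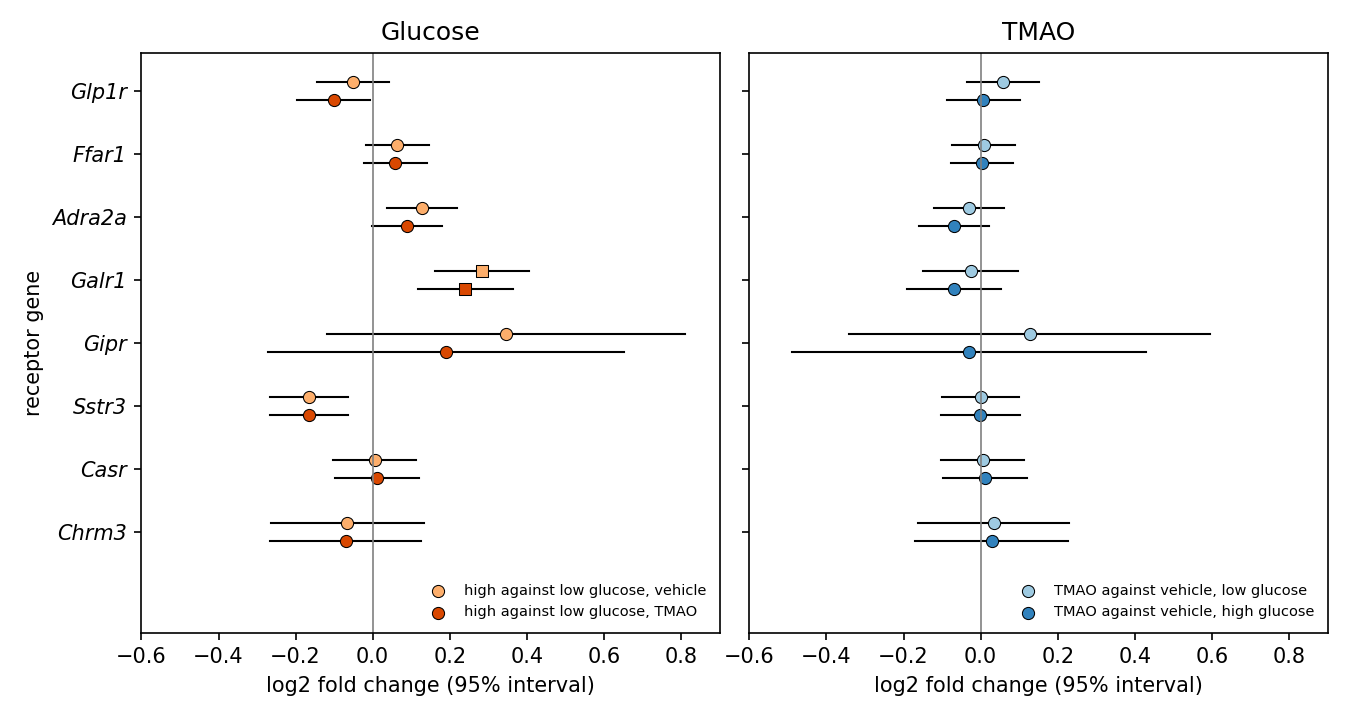
Log2 fold changes (points) with 95% intervals (lines) of the 8 tested receptors, for high against low glucose within each treatment (left) and TMAO against vehicle within each glucose level (right). Squares mark an adjusted p under 0.05, which Galr1 alone reached in the 4 comparisons shown, and the intervals of Gipr are the widest.

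Gipr differed from the other 7 in its spread. Its level was 14.9, 18.5 and 22 FPKM in low glucose with vehicle and 15.4, 18.8 and 26.3 FPKM with TMAO, against 25.5, 22.1 and 22.6 FPKM in high glucose with vehicle and 23.5, 23.7 and 21.6 FPKM with TMAO. The 2 lowest values were both from low-glucose libraries, and the highest of all 12 was as well. In both low-glucose conditions the level rose from replicate 1 to replicate 3, so the spread went with the library number. High against low glucose over both treatments gave a log2 fold change of 0.27 ± 0.14 (SE, adjusted p = 0.359), close in size to that of Galr1 but not called. Its standard deviation within conditions was 0.25 on the log2 scale, more than in 96.1% of 12309 genes with at least 50 counts on average. For Ffar1 it was 0.02 and for Sstr3 0.03, which placed them above 0.284% and 0.479% of these genes.

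The low-glucose libraries that were low in Gipr were also low in Malat1 and Neat1, long non-coding RNAs that stay in the nucleus, which were looked at after the values had been seen. Malat1 was at 79.9, 128 and 162 FPKM in low glucose with vehicle and at 79.5, 126 and 151 FPKM with TMAO, and at 175 to 201 FPKM in the 6 high-glucose libraries. Within each low-glucose condition Neat1 put the libraries in the same order, from 7.34 to 13.3 FPKM, and lay between 13.6 and 16.3 FPKM in high glucose. Of deviations from the condition means in the 12 libraries, those of Gipr had a Pearson's r of 0.89 with Malat1, and 166 genes had an r over 0.9 with Gipr, whereas for each of the other tested receptors at most 50 did. For Galr1 the r with Malat1 was -0.23, for Adra2a -0.54 and for Sstr3 -0.00074. These r values describe 12 libraries in 4 conditions and carry no test.

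Without replicate 1 of both low-glucose conditions, a choice made after seeing the data, Gipr changed by a log2 fold change of 0.12 (adjusted p = 0.674). Galr1 rose by 0.28 (adjusted p = 0.000153), Sstr3 fell by 0.16 on the log2 scale (adjusted p = 0.00924) and Adra2a rose by 0.13 (adjusted p = 0.0191). The same 3 receptors were thus called, of 925 genes in all. The part of Malat1 and of what moved with it in the Gipr values was not tested.

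**Figure D4:**
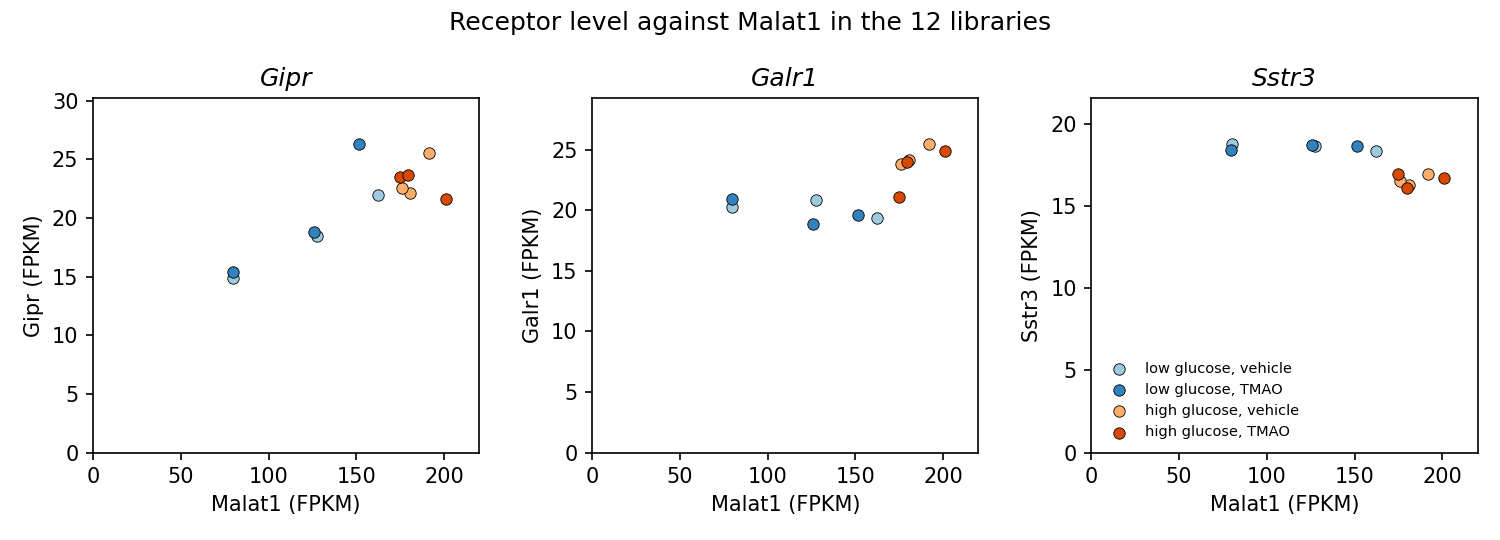
FPKM of Gipr, Galr1 and Sstr3 against FPKM of Malat1, with 1 point per library coloured by condition. Within each low-glucose condition Gipr climbs with Malat1, over 14.9 to 26.3 FPKM in all, while Galr1 stays between 18.9 and 20.9 FPKM and Sstr3 between 18.4 and 18.8 FPKM.

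TMAO against vehicle addressed whether the metabolite alters these transcripts. At low glucose the log2 fold changes of the 8 receptors lay between -0.03 and 0.13, and at high glucose between -0.07 and 0.03. None was called (0 of 8 at either level), beside 0.00616% and 0% of all tested genes. At an unadjusted p under 0.05 there were 0 of 8 at either level, beside 2.2% of all tested genes at low and 5.35% at high glucose. The gene called at low glucose was Egr1, an immediate early transcription factor, with a log2 fold change of 0.52 ± 0.08 (SE, adjusted p = 0.00207). At high glucose 0 genes were called by edgeR, 868 had an unadjusted p under 0.05, and DESeq2 called 3. The paper reports up- and downregulated genes for TMAO at high glucose. Its methods name no differential expression test for these libraries, so its counts were not compared. No receptor had non-overlapping libraries at either glucose level, beside 6.36% of tested genes at low and 11.1% at high glucose. Averaged over both glucose levels, 0 of 8 receptors and 0% of tested genes were called, with 588 genes at an unadjusted p under 0.05 and 2 calls by DESeq2.

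No TMAO change among the receptors had a 95% interval that left out 0. Gipr changed by 0.13 ± 0.20 (log2, SE) at low glucose, with a 95% interval of -0.34 to 0.60, and by -0.03 ± 0.20 at high glucose. With a replicate block the low-glucose value of Gipr was 0.12. Glp1r changed by 0.06 ± 0.05 at low glucose and 0.01 ± 0.05 at high glucose. At high glucose Adra2a changed by -0.07 ± 0.04 and Galr1 by -0.07 ± 0.06. With 1 library left out, these values ranged from -0.10 to -0.04 for Adra2a and from -0.12 to -0.0035 for Galr1, where the smallest changes were without replicate 1 of vehicle and replicate 1 of TMAO, respectively. For Sstr3, whose group means were 18.6 FPKM in both low-glucose and 16.6 FPKM in both high-glucose conditions, the 95% interval of the TMAO fold at high glucose was 0.931 to 1.07. For the receptors other than Gipr, the 95% intervals at each glucose level lay between -0.19 and 0.23 on the log2 scale. The interaction of TMAO and glucose was between -0.16 and 0.01 for the 8 receptors, with none called (0% of all genes, 545 at an unadjusted p under 0.05, 1 call by DESeq2).

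Genes whose pattern over the 12 libraries was most like that of each called receptor were found among 12308 genes, by Pearson's r of log2 library-scaled counts. For Galr1 they were Sema6d (r = 0.92), Zswim4 (0.92) and Siah2 (0.92), with glucose log2 fold changes of 0.33, 0.28 and 0.37. For Sstr3 they were Pex26 (r = 0.98), 1700017B05Rik (0.97) and Vps37d (0.97), which fell by 0.24, 0.40 and 0.51 on the log2 scale. For Adra2a they were Cabp1 (r = 0.95), Mafa (0.94) and Cbarp (0.94). Mafa, a β-cell transcription factor, was at 461 to 570 FPKM in low and 656 to 915 FPKM in high glucose (log2 fold change 0.54 ± 0.08, adjusted p = 0.00264). For Gipr, added after its values were seen, they were Med12 (0.98), Leng8 (0.98) and Slc9a5 (0.98). These libraries differ in glucose, so any pair of genes that both respond will correlate.

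Among the receptors themselves, Galr1 and Sstr3 were the most opposed over the 12 libraries (r = -0.87). Galr1 correlated with Adra2a (r = 0.80) and with Ffar1 (r = 0.79), and Glp1r with Sstr3 (r = 0.59). Gipr had r values between -0.58 and 0.42 with the other 7.

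Of 130 other G protein-coupled receptors on a list for islets, 55 were tested and 30 had no count in any library. Of the 130, 33 averaged at least 1 FPKM, 6 at least as much as Casr and 0 as much as Glp1r. By mean counts, not divided by gene length, some exceeded Glp1r (2738), among them Adgrg1 (4523) and Oxtr (3113). The highest were Adgrg1, an adhesion receptor (44.1 FPKM), Oxtr, the oxytocin receptor (34.4 FPKM), and Galr3, a second galanin receptor (32.4 FPKM). With glucose over both treatments, 6 rose and 2 fell of the 55 tested, which is 14.5% called beside 8.19% of all tested genes. The median log2 fold change of the list was 0.02, beside 0.0011 over all tested genes.

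Those that rose included Oxtr, from 26.6 to 31.6 FPKM in low to 37.5 to 42.2 FPKM in high glucose (log2 fold change 0.46 ± 0.04, adjusted p = 1.63e-10). The ADP receptor P2ry1 rose by 0.48 ± 0.05 (adjusted p = 5.41e-09), the prostaglandin E receptor Ptger3 by 0.52 ± 0.08 and the adenosine receptor Adora2a by 0.51 ± 0.09. The short-chain fatty acid receptor Ffar2 rose by 0.23 ± 0.05 (adjusted p = 0.00114), and the ghrelin receptor Ghsr, at only 0.616 FPKM on average, by 0.43 ± 0.13 (adjusted p = 0.0464). The 2 that fell were Sstr5 and Gprc5b, named here after their values were seen. Sstr5, a second somatostatin receptor, was at 10.4 to 11.2 FPKM in low and 8.42 to 10.1 FPKM in high glucose (log2 fold change -0.23 ± 0.05, adjusted p = 0.00267). Galr3 was not called (log2 fold change -0.01 ± 0.05, adjusted p = 0.927), nor was Adgrg1 (adjusted p = 0.116). With TMAO 0 of the 55 were called at either glucose level.

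**Figure D5:**
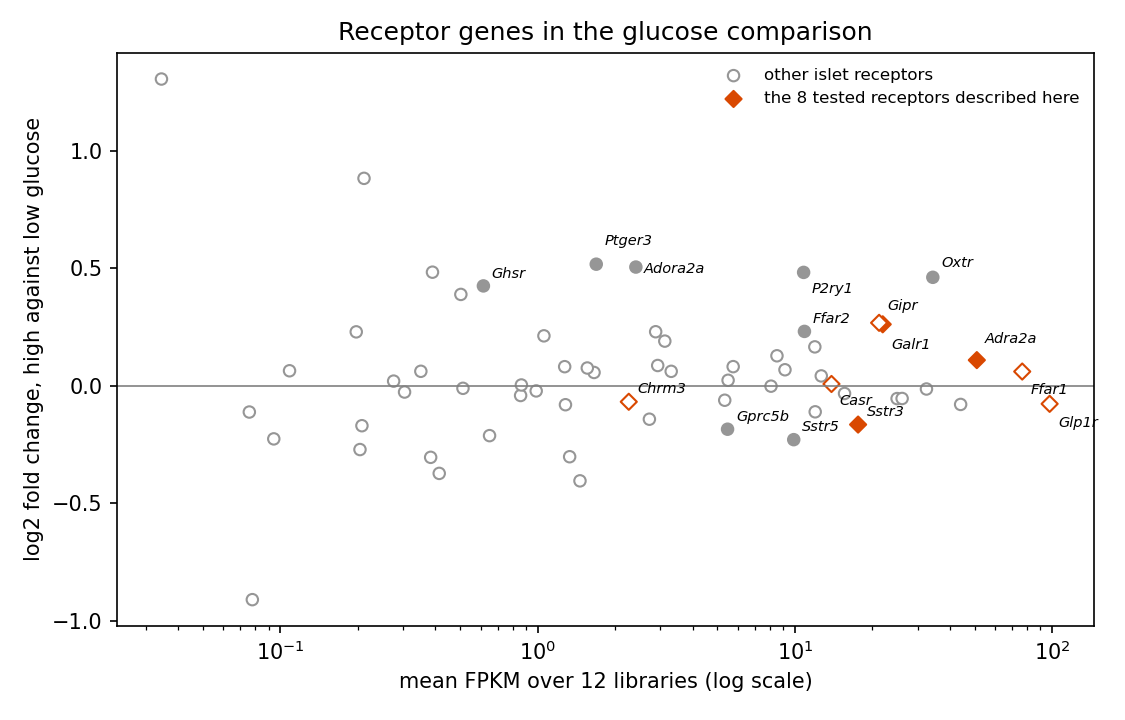
Log2 fold change of high against low glucose over both treatments against mean FPKM (log axis) for the 8 tested receptors described here (diamonds) and 55 other islet receptors (circles). Filled symbols have an adjusted p under 0.05, and Oxtr (34.4 FPKM) and P2ry1 (10.8 FPKM) have larger changes than Galr1 (21.9 FPKM).

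The intracellular partners of the receptors were described list by list. Of 22 tested G protein subunits, 1 rose and 1 fell with glucose (9.09%, beside 8.19% of all tested genes), with a median log2 fold change of 0.02. Gng4, a γ subunit, rose by 0.17 ± 0.04 (adjusted p = 0.00169) and Gnaz, an α subunit of the Gi family, changed by -0.14 ± 0.04 (adjusted p = 0.0313). The most abundant subunits, Gng12 (370 FPKM), Gnb1 (107 FPKM) and Gnb2 (106 FPKM), were not called. Of 8 tested receptor kinases, arrestins and RAMPs, 0 were called, with Grk2, Arrb2 and Grk6 the most abundant (31.9, 28.1 and 22.7 FPKM) and a median log2 fold change of 0.05. Of 10 tested genes for phospholipase C, protein kinase A and Epac, 0 were called. Their most abundant, Prkar1a (229 FPKM) and Prkaca (72.4 FPKM), are subunits of protein kinase A, and the list's median log2 fold change was 0.0048.

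Of 9 genes for ligands or their synthesis, 4 were tested and 1 was called with glucose, Gcg, which encodes glucagon and GLP-1 (beside 8.19% of all tested genes). The median log2 fold change of the 4 was 0.17, beside 0.0011 over all tested genes. Gcg was at 200 to 216 FPKM in low and 222 to 227 FPKM in high glucose (log2 fold change 0.11 ± 0.03, adjusted p = 0.0102), next to a near-absent Gcgr and a high Glp1r. Th, tyrosine hydroxylase of catecholamine synthesis, averaged 68.3 FPKM and was not called (log2 fold change 0.02 ± 0.04, adjusted p = 0.822). Somatostatin, the ligand of Sstr3, had 6 to 24 counts per library (log2 fold change 0.22 ± 0.25, adjusted p = 0.706). With TMAO, 0 genes of these 4 lists were called at either glucose level.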

How the data were processed

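RNA-seq was analysed for 12 libraries of MIN6 cells. Libraries were made by poly-T selection with the NEBNext Ultra kit and sequenced paired-end. The strand setting of the counting is not given in the sources used here. The submitters' processing notes name HISAT2 2.0.5, featureCounts 1.5.0-p3, DESeq2 1.16.1 and the build mm10. The authors deposited a table of raw counts per gene and a table of FPKM values, both with the gene length used. Scaling each count by its gene length gives the deposited FPKM with a total per library that is within 1.37% of the summed counts.

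Counts were tested in R 4.3.3 with edgeR 4.0.16, using filterByExpr by condition, TMM, robust dispersions and the robust quasi-likelihood F test on 4 condition means. Standard errors were derived from the fold change and F, as the ratio of the former to the root of the latter. Adjusted p-values are Benjamini-Hochberg values over all 16222 tested genes, called under 0.05. Sets of genes were described by counts and medians. Alternatives were DESeq2 1.42.0 size factors or Wald test, other filters, a replicate block, limma 3.58.1 applied to log2 FPKM with a pseudocount of 1 or of 0.1, fewer libraries, and each library left out. The fits were tested on simulated data.

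The receptors and lists were chosen with earlier results of these data known. Named genes were the 10 receptors; from each list, up to 6 called genes by size of the glucose change (mean of at least 50 counts) and the 3 highest in FPKM; and the 3 genes most like each called receptor (same count minimum). Others are said to be named after their values were seen. Some marker genes are not reported here. Sequences near start sites are from RefSeq on GRCm38.p6. Same-numbered libraries deviated together at low glucose (r of 0.213, 0.0275 and 0.147) and less at high glucose (0.0231, -0.00566 and 0.0657). The main fit did not take the numbers as pairs at either glucose level, and a replicate block was run as an alternative.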

Additional observations from a re-analysis of the deposited data

How the results depend on the processing

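Over 952 values of the 8 tested receptors under alternatives, 77 had the opposite sign, none of a called value. Each had a main log2 fold change of at most 0.156 in size. With 1 library left out, sign changes included Gipr for TMAO at low glucose (-0.11 to 0.29, and -0.0075 without replicate 1 of vehicle) and at high glucose (-0.070 to 0.040, and 0.0099 without replicate 3 of TMAO), Galr1 for TMAO at low glucose (-0.067 to 0.0077), Glp1r for TMAO at high glucose (-0.0083 to 0.038) and Casr for glucose over both treatments (-0.015 to 0.029). Over all alternatives they also included Sstr3 for TMAO at low glucose in 6 of 15 alternatives and at high glucose in 5 of 14, and Chrm3 for glucose with vehicle in 2 of 15.

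Receptors called were 2 instead of 1 for glucose with vehicle under limma with either pseudocount (2 and 2), where Sstr3 joined. With TMAO, limma called Sstr3 in place of Galr1. They were 0 to 1 for glucose with TMAO and 2 to 3 over both treatments when 1 library was left out. With the replicate block, 2 were called with vehicle and 2 with TMAO (Galr1 and Sstr3, adjusted p = 0.0363 and 0.0319 for the latter), and 3 over both. At low glucose every vehicle library correlated best with the TMAO library of its own number, a hint from the data and not from the design. For replicate 2 the margin was small (r of 0.0275 against 0.0113 for the next).

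Genes called for TMAO at low glucose were 7 with no filter, 0 with either limma fit, 3 with the 6 libraries alone, 2 without replicate 1 of both low-glucose conditions and 0 to 1 with 1 library left out. At high glucose they were 3 with DESeq2, 13 with no filter, 3 with the 6 libraries and 0 to 1 with 1 left out. Over both glucose levels they were 2 with DESeq2, 9 with no filter and 0 to 2 with 1 left out, and for the interaction 1, 6 and 0 to 2. For glucose with TMAO they were 347 and 337 with limma, 363 without replicate 1 of both low-glucose conditions and 344 to 657 with 1 left out. For glucose with vehicle 328 to 475 were called with 1 left out. What causes these shifts was not tested. At the lowest library total, 3 counts are 1.79e-05% of a library, which limits Gcgr and Gpr119.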
